A study of Mus musculus with 10 samples.

Results

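The 10 genes described here encode the enzymes, transporters and receptors that make bile acids, move them through the hepatocyte and control their synthesis. They were chosen by name among the 38922 genes measured, with earlier results of these data known, so counts over them are a description only. All 10 passed the filter on low counts. They are Cyp7a1 and Cyp8b1 of the classic pathway, Cyp27a1 and Cyp7b1 of the alternative pathway, Slc27a5 and Baat for conjugation, Slc10a1 and Abcb11 for transport, and the nuclear receptors Nr1h4 (FXR) and Nr0b2 (SHP). RNA was sequenced from whole livers of wild-type male mice of the inbred strain C57BL/6N, aged 6 weeks. In the CD95-Ab group, 5 mice received 0.5 µg/g of an activating antibody against CD95 (Fas), a death receptor to which hepatocytes are very sensitive, by intraperitoneal injection. The 5 controls received saline, and livers of both groups were taken at 6 h. Each library came from 1 mouse.

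Bile acids are made from cholesterol in hepatocytes. The classic pathway starts with the hydroxylase encoded by Cyp7a1, and the alternative pathway starts with the mitochondrial hydroxylase encoded by Cyp27a1. Bile acids bind FXR, which raises transcription of SHP and of the canalicular export pump, and SHP in turn represses the enzymes of the classic pathway. Inflammatory cytokines and growth factors are also known to lower Cyp7a1.

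After CD95-Ab, Cyp7a1 was 44.2-fold lower and Cyp8b1 was 5.23-fold lower, and the uptake carrier Slc10a1 and the receptor Nr1h4 fell by smaller factors. Slc27a5 fell as well, whereas Cyp7b1 and Nr0b2 rose. Levels are given as CPM, which are counts scaled to an adjusted library total of 1000000, and groups were tested by edgeR quasi-likelihood, with adjustment over 13719 tested genes (FDR). At an FDR of 0.05 or less, 5 of the 10 genes were lower and 2 were higher. Among all tested genes, 47.3% passed this threshold, 22% lower and 25.4% higher. With a log2 fold change of -2 or less as a further threshold, 2 of the 10 genes were lower, compared with 1.11% of all tested genes. The log2 fold change was below 0 for 8 of the 10 genes, and its median over the 10 was -0.50, while the median over all tested genes was 0.01. Every mouse injected with CD95-Ab lay below every saline-injected control for 4 of the 10 genes, compared with 14.7% of all tested genes. No gene of the 10 lay wholly above its controls, which 18.6% of all tested genes did.

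In libraries of 25965699 to 62097636 counts, albumin (Alb), the main secreted protein of hepatocytes, was between 76153 and 98067 CPM in saline-injected mice and between 30505 and 60979 CPM after CD95-Ab. In whole tissue, fewer cells of a type and less RNA per cell cannot be told apart. The changes were therefore also computed with the summed counts of 16 secreted-protein and other hepatocyte genes as the library total. That scaling moved the median log2 fold change of all tested genes to 0.73, a shift of 0.72, and the higher share of all calls from 53.6% to 95.2%. Albumin made up between 40% and 59.8% of that sum in a mouse. On this hepatocyte scale 3.06% of all tested genes were lower, 0.394% were lower past -2 and 60.2% were higher, while of the 10 genes 3 were lower, 1 of them past -2, and 3 were higher. For each gene named below from the pathway, the value on this scale is given where it turns a direction or ends a call.

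**Figure D1:**
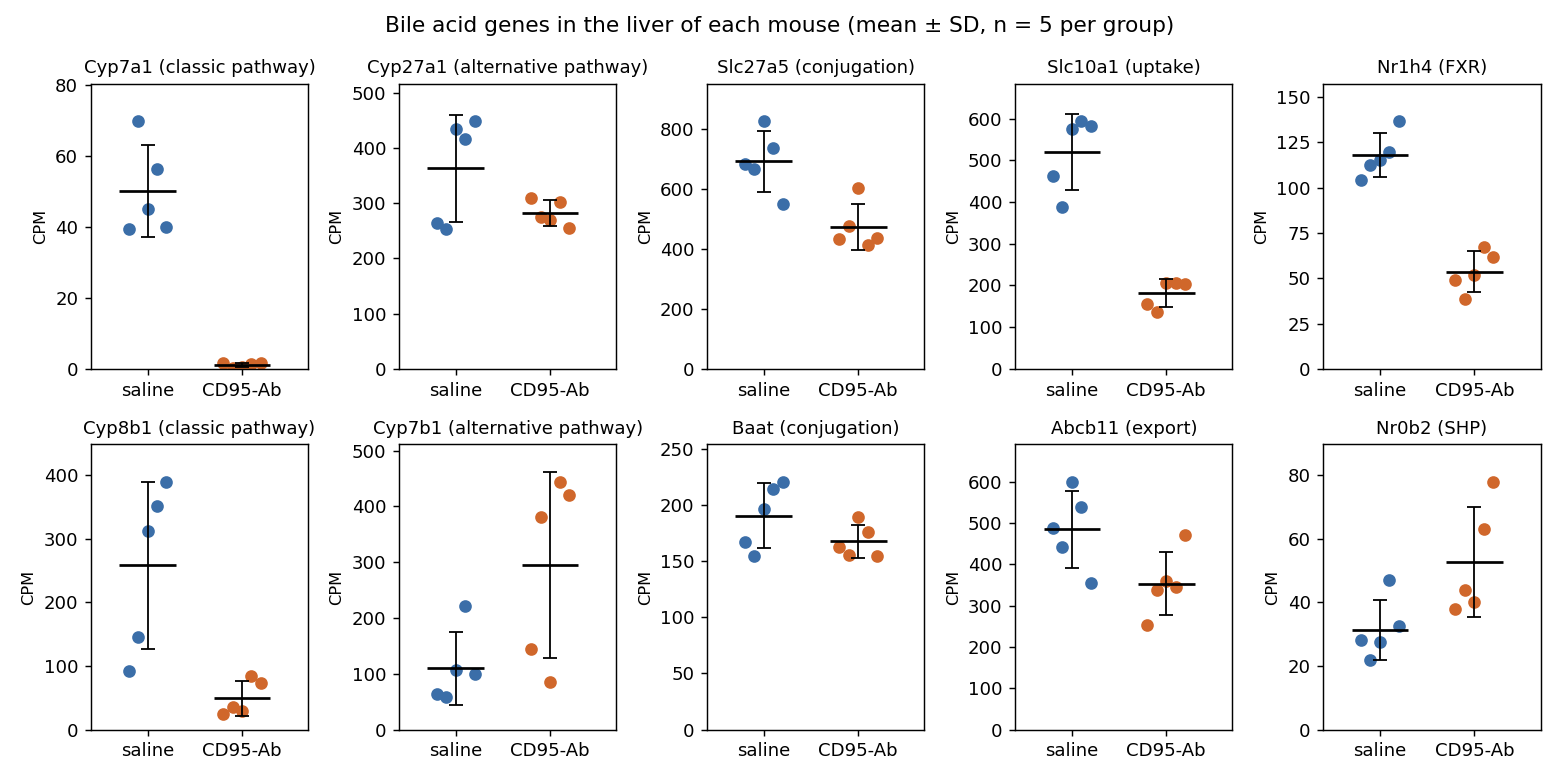
Level of each of the 10 genes in the liver of each mouse, in CPM on a linear axis from 0, with 5 saline-injected mice (blue) and 5 mice injected with CD95-Ab (orange). Horizontal bars are means and vertical bars SD. The groups are apart for Cyp7a1, Cyp8b1, Slc10a1 and Nr1h4, and they overlap for the other 6 genes.

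Cyp7a1 (ENSMUSG00000028240, chr4:6265612-6275633, minus strand, GRCm38), the rate-limiting enzyme of the classic pathway, was at 39.4, 69.8, 44.9, 56.2 and 39.8 CPM in saline-injected mice 1 to 5. It was at 1.76, 0.382, 0.478, 1.41 and 1.53 CPM in mice injected with CD95-Ab. The groups did not overlap, and the highest mouse after CD95-Ab was far below the lowest control. The mean fell from 50.02 ± 13.0 to 1.11 ± 0.637 CPM (SD, n = 5 each), a log2 fold change of -5.46 (SE 0.39, FDR 1.38e-06). These levels rest on 1461 to 2354 counts per saline-injected mouse and on 12 to 69 counts after CD95-Ab. Of the 13719 tested genes, 2 had a lower log2 fold change. On the hepatocyte scale the log2 fold change was -4.73.

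Cyp8b1 (ENSMUSG00000050445, chr9:121914356-121916305, minus strand) encodes the sterol hydroxylase that directs synthesis to cholic acid. It was at 92.6, 146, 312, 351 and 390 CPM in saline-injected mice and at 25.0, 36.1, 29.0, 84.5 and 72.7 CPM after CD95-Ab. The groups did not overlap, but controls 1 and 2 were much nearer to the treated mice than the other 3 controls were. The mean fell from 258.5 ± 131 to 49.5 ± 27.2 CPM (SD, n = 5 each), with a log2 fold change of -2.39 (SE 0.46, FDR 0.00122). It was -1.58 on the hepatocyte scale, still called but no longer past -2.

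In the alternative pathway neither gene fell past the threshold. Cyp27a1 (ENSMUSG00000026170, chr1:74713574-74737892, plus strand) was at 263, 252.4, 434, 417 and 449 CPM in saline-injected mice and at 309, 274, 269, 302 and 255 CPM after CD95-Ab. The treated mice lay close together, near controls 1 and 2 and below the other 3 controls. The log2 fold change was -0.36 (SE 0.18, FDR 0.121), and 0.36 on the hepatocyte scale, where the direction turned and the gene was again not called. Without saline-injected mouse 2 the decrease of Cyp27a1 passed the threshold.

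Cyp7b1 (ENSMUSG00000039519, chr3:18071950-18243338, minus strand) encodes the oxysterol hydroxylase that acts on the products of Cyp27a1 and related enzymes. It was at 64.2, 58.8, 107, 222 and 99.1 CPM in saline-injected mice and at 144, 381, 85.9, 445 and 420 CPM after CD95-Ab. Mice 2, 4 and 5 of the treated group lay above every control, and mice 1 and 3 lay within the range of the controls. The mean rose from 110 ± 65.8 to 295 ± 167 CPM (SD, n = 5 each), with a log2 fold change of 1.42 (SE 0.48, FDR 0.029). This call was lost in 7 of the 10 fits that each left out 1 mouse, namely controls 1, 2, 3 or 5 or treated mice 2, 4 or 5, with log2 fold changes between 1.22 and 1.82 over the 10 fits. The gene varied more than most of the others within each group, with a coefficient of variation of 59.8% in saline-injected mice and 56.7% after CD95-Ab.

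Conjugation with taurine or glycine makes bile acids soluble, and its 2 enzymes changed little compared with the classic pathway. Slc27a5 (ENSMUSG00000030382, chr7:12988346-12998192, minus strand), the bile acid CoA ligase, was at 684, 666, 827, 738 and 549 CPM in saline-injected mice and at 433, 477, 602, 414 and 436 CPM after CD95-Ab. Control 5 lay below treated mouse 3, so the groups overlapped. The mean fell from 693 ± 102 to 472 ± 75.9 CPM (SD, n = 5 each), with a log2 fold change of -0.55 (SE 0.16, FDR 0.0123), whereas on the hepatocyte scale the value was 0.14 (FDR 0.523) and the direction turned.

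Baat (ENSMUSG00000039653, chr4:49489422-49506557, minus strand), which joins the amino acid to the CoA ester, was at 167, 154, 196, 214 and 221 CPM in saline-injected mice. After CD95-Ab it was at 163, 155, 189, 175 and 154 CPM. The treated mice lay within the range of the controls or at its lower edge. The log2 fold change was -0.19 (SE 0.13, FDR 0.269), and on the hepatocyte scale it turned to 0.52 (FDR 0.0143), which was called higher.

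Among the transporters, the uptake carrier fell and the export pump did not pass the threshold. Slc10a1 (ENSMUSG00000021135, chr12:80953183-80968705, minus strand), the sodium-dependent carrier NTCP that takes bile acids up from the blood, was at 462, 389, 575, 595 and 582 CPM in saline-injected mice. After CD95-Ab it was at 155, 136, 207, 206 and 204 CPM, and the groups did not overlap. The mean fell from 521 ± 90.5 to 181.5 ± 33.8 CPM (SD, n = 5 each), a 2.87-fold difference with a log2 fold change of -1.52 (SE 0.18, FDR 3.59e-05). On the hepatocyte scale the log2 fold change was -0.79 (FDR 0.00447).

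Abcb11 (ENSMUSG00000027048, chr2:69238282-69342616, minus strand), the canalicular pump BSEP and a target of FXR, was at 487, 443, 600, 538 and 356 CPM in saline-injected mice and at 254, 338, 360, 345 and 470 CPM after CD95-Ab. The groups overlapped, with mouse 5 as the lowest control and the highest treated mouse. The log2 fold change was -0.45 (SE 0.19, FDR 0.0633), and 0.28 on the hepatocyte scale, where the direction turned and the gene was not called. Without mouse 5 of either group the decrease passed the threshold, and over the 10 fits without 1 mouse the log2 fold change lay between -0.58 and -0.36. DESeq2 and limma on FPKM also called it lower, as did edgeR with RLE factors, upper quartile factors or library totals alone.

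The 2 nuclear receptors moved in opposite directions. Nr1h4 (ENSMUSG00000047638, chr10:89454234-89533585, minus strand), which encodes FXR, was at 104, 113, 115, 120 and 137 CPM in saline-injected mice and at 48.8, 38.5, 52.0, 67.3 and 61.5 CPM after CD95-Ab. The groups did not overlap, and the controls varied by only 10.3% (coefficient of variation), the lowest value of the 10 genes in saline-injected mice. The mean fell from 118 ± 12.1 to 53.6 ± 11.2 CPM (SD, n = 5 each), with a log2 fold change of -1.13 (SE 0.15, FDR 0.000112). On the hepatocyte scale the value was -0.39 (FDR 0.109), and the call was lost.

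Nr0b2 (ENSMUSG00000037583, chr4:133553376-133556536, plus strand), the FXR target SHP, was at 28.1, 22.0, 27.6, 46.9 and 32.5 CPM in saline-injected mice and at 38.0, 44.0, 40.1, 63.1 and 78.0 CPM after CD95-Ab. Control 4 lay above treated mice 1, 2 and 3, so the groups overlapped. The mean rose from 31.4 ± 9.43 to 52.6 ± 17.3 CPM (SD, n = 5 each), with a log2 fold change of 0.74 (SE 0.24, FDR 0.0242). The call was lost in 5 of the 10 fits without 1 mouse, those without control 1, 2 or 3 or treated mouse 4 or 5, with values between 0.56 and 0.90 over the 10 fits. On the hepatocyte scale the increase was 1.51 (FDR 0.000545).

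**Figure D2:**
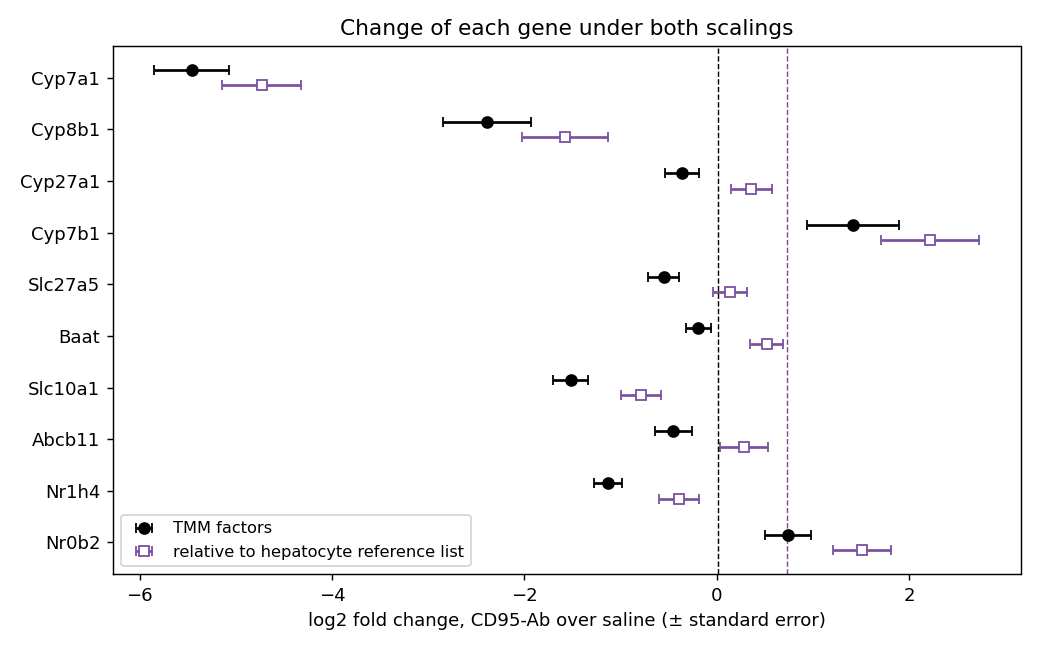
Log2 fold change of each gene after CD95-Ab over saline, with SE bars, from adjusted library totals (TMM, filled circles) and relative to the 16 hepatocyte genes (open squares); the dashed lines mark the median of all tested genes under each scaling, 0.01 and 0.73. Cyp7a1 lies at -5.46 and -4.73, and Cyp27a1, Slc27a5, Baat and Abcb11 are below 0 with TMM and above 0 on the hepatocyte scale.

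Set against the median of all tested genes under the hepatocyte scale, the values returned close to those above. Cyp7a1 was then at -5.46, Cyp8b1 at -2.31, Slc10a1 at -1.52 and Nr1h4 at -1.12. Cyp7b1 was at 1.49 and Nr0b2 at 0.78. A change of library total multiplies all genes of a mouse by the same factor. A nearly common shift between the 2 scalings therefore follows from the arithmetic, and the closeness of these values is not a separate check on them.

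Mice of a group did not keep 1 order across the genes. Controls 1 and 2 were the lowest pair of controls for 6 genes, namely Cyp8b1, Cyp27a1, Cyp7b1, Baat, Slc10a1 and Nr1h4. For Cyp7a1, by contrast, control 2 was the highest. In the treated group, mouse 1 was highest for Cyp7a1 and Cyp27a1 and lowest for Cyp8b1, Abcb11 and Nr0b2.

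A ratio of counts of 2 genes within a mouse does not depend on how the totals are scaled. The log2 ratio of Cyp7a1 to Cyp27a1, the entry enzymes of the classic and alternative pathways, was between -3.50 and -1.85 in saline-injected mice and between -9.43 and -7.37 after CD95-Ab. The groups did not overlap, and the mean ratio fell by 5.36 on the log2 scale (two-sided exact permutation test, p = 0.00794, adjusted over 5 ratios 0.00992, the smallest p that 5 mice against 5 allow being 0.00794). Within the classic pathway, the ratio of Cyp8b1 to Cyp7a1 rose from 2.21 ± 0.99 to 5.52 ± 1.02 (SD, n = 5 each, exact permutation test, adjusted p = 0.00992), so that Cyp7a1 fell 9.98-fold further than Cyp8b1. Treated mouse 1 had the lowest ratio of its group, 3.81, which was still above the highest control at 3.29.

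The ratio of Abcb11 to Slc10a1, export to uptake, rose from -0.11 ± 0.36 to 0.96 ± 0.28 on the log2 scale (SD, n = 5 each, exact permutation test, adjusted p = 0.00992), a 2.09-fold difference with no overlap. The ratio of Nr0b2 to Nr1h4 rose from -1.95 ± 0.37 to -0.06 ± 0.32 (SD, n = 5 each, exact permutation test, adjusted p = 0.00992), also with no overlap. After CD95-Ab, counts of SHP thus came close to those of FXR, a 3.7-fold change in their ratio. Counts are not adjusted for transcript length. Per length, the mean of Nr0b2 was below that of Nr1h4 in saline-injected mice (29.9 and 62.6 FPKM) and above it after CD95-Ab (47.4 and 26.8 FPKM). For Baat to Slc27a5 the groups overlapped, and the difference of 0.38 did not pass the threshold (exact permutation test, n = 5 each, adjusted p = 0.0635). The change of that ratio did pass with FPKM in place of counts, and without control 5.

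**Figure D3:**
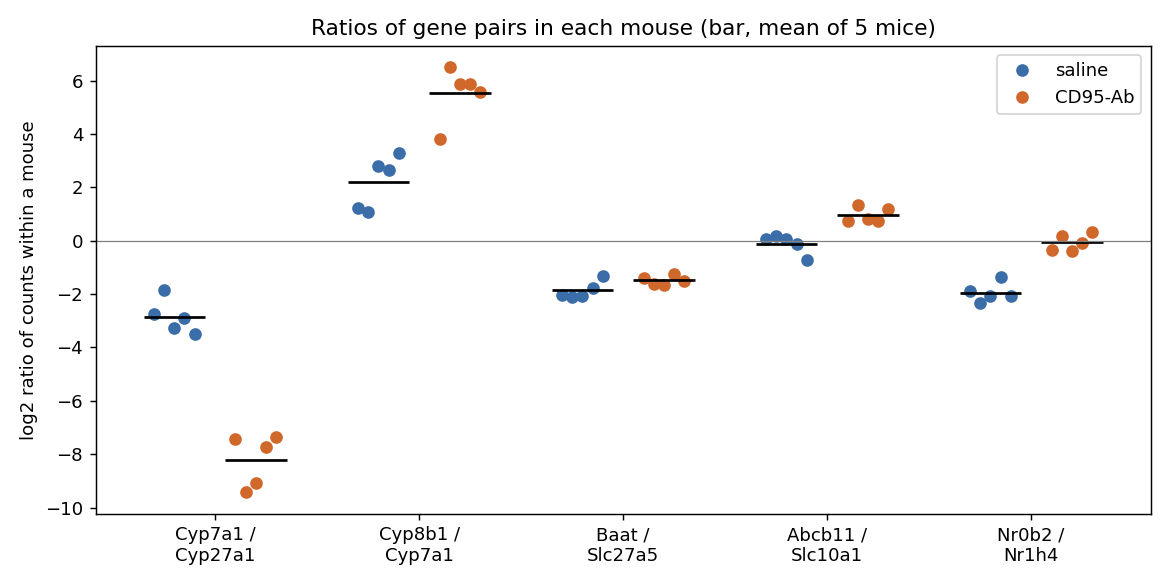
Log2 ratio of counts of 5 gene pairs within each mouse (0.5 added to each count), with saline in blue, CD95-Ab in orange and bars at the means of 5 mice. The groups are apart for every pair except Baat to Slc27a5, and Cyp7a1 to Cyp27a1 moves furthest, from -2.85 to -8.21.

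Levels of different genes were compared per transcript length, on the deposited FPKM and without a test. In saline-injected mice the order was Slc27a5 (409.8 ± 25.9 FPKM), Slc10a1 (329 ± 39.5), Cyp27a1 (200.8 ± 39.5), Abcb11 (173.7 ± 11.6), Cyp8b1 (135.7 ± 59.8), Baat (103.3 ± 7.73), Nr1h4 (62.6 ± 2.40), Cyp7b1 (52.9 ± 30.2), Nr0b2 (29.9 ± 7.96) and Cyp7a1 (12.8 ± 4.11 FPKM, SD, n = 5). Transcripts of conjugation and uptake were thus far more abundant than those of the rate-limiting enzyme. Neighbours from Cyp27a1 to Baat and from Nr1h4 to Nr0b2 differed by less than the sum of their SD.

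After CD95-Ab, Slc27a5 was still first at 269.3 ± 27.5 FPKM. Cyp27a1 (150.2 ± 23.8), Cyp7b1 (134.6 ± 72.9), Abcb11 (110.7 ± 22.8), Slc10a1 (108.2 ± 15.6) and Baat (86.1 ± 7.60 FPKM, SD, n = 5) followed with spreads that overlapped between neighbours. Nr0b2 was at 47.4 ± 15.5, Nr1h4 at 26.8 ± 4.81 and Cyp8b1 at 24.8 ± 12.4 FPKM, with Nr1h4 and Cyp8b1 within their spread of each other. Cyp7a1 remained last at 0.312 ± 0.181 FPKM. Slc10a1 moved from rank 2 to rank 5, Cyp8b1 from rank 5 to rank 9, and Cyp7b1 from rank 8 to rank 3.

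**Figure D4:**
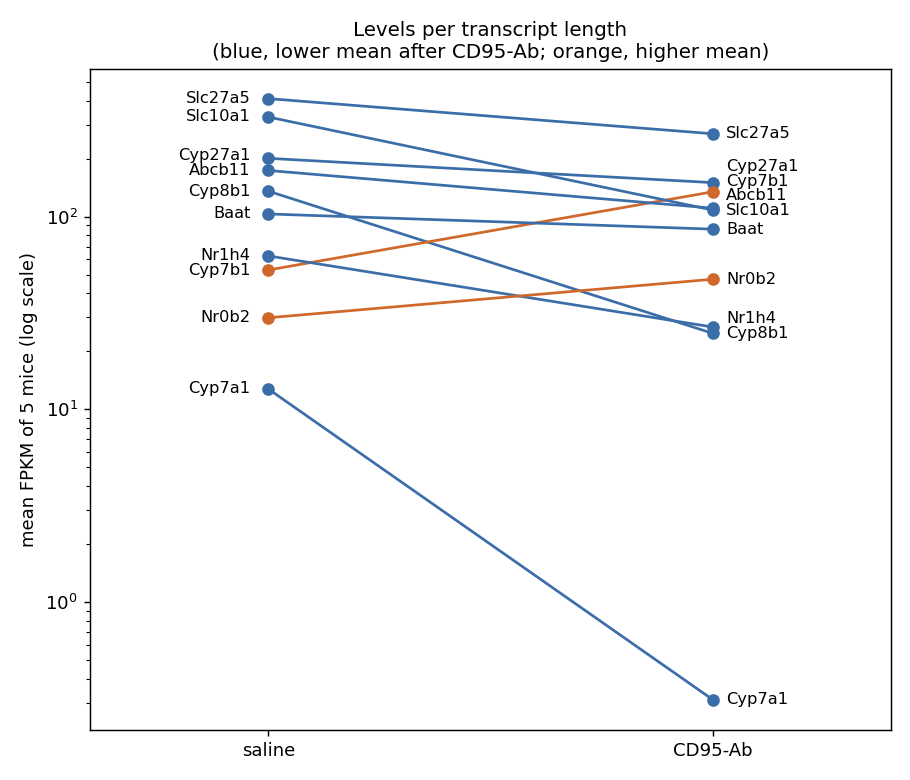
Mean FPKM of 5 mice for each gene, on a log axis, joined between saline and CD95-Ab; blue lines mark genes with a lower mean and orange lines genes with a higher mean after CD95-Ab. Cyp7a1 drops from 12.8 to 0.312 FPKM, Cyp7b1 crosses from rank 8 to rank 3, and names at the right edge are spread apart where levels nearly coincide.

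Promoter sequence was available from RefSeq (GRCm38.p6) for 6 of the 10 genes, and the 250 bases before the start are shown for 4 of them. Cyp8b1 and Slc10a1 are the 2 genes with such a sequence that fell most, and Nr0b2 and Abcb11 are known targets of FXR. The sequences run 5′ to 3′ on the strand of the gene and end at the base before the start. Capitals mark CAAAGTCCA, a site of the type bound by HNF4A, or AGGTCA, the core hexamer of nuclear receptor sites, on either strand.
Cyp8b1 promoter, chr9:121916306-121916555, minus strand: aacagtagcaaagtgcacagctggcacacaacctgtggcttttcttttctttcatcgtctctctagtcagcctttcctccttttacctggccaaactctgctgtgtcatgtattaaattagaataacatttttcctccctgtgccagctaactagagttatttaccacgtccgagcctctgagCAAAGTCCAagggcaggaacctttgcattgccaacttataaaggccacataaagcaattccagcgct
Slc10a1 promoter, chr12:80968706-80968955, minus strand: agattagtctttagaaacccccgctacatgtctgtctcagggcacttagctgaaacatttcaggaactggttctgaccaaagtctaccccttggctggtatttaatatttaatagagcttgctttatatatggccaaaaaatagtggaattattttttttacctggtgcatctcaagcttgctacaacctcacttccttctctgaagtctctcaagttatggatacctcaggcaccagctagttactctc
Nr0b2 promoter, chr4:133553126-133553375, plus strand: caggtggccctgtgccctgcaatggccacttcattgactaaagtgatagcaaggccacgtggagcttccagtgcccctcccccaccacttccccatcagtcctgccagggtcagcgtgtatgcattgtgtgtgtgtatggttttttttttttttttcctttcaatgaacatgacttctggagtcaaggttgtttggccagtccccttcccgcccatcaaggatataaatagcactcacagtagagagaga
Abcb11 promoter, chr2:69342617-69342866, minus strand: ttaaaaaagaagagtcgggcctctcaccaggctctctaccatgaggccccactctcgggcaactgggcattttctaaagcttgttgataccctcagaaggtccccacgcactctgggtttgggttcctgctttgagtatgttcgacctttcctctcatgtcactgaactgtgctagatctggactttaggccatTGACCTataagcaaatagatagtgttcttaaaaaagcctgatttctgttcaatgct

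In Cyp8b1, CAAAGTCCA lay from 67 to 59 bases before the start, a motif that 0.384% of 32851 promoters of this length held. In Abcb11, AGGTCA was found on the opposite strand from 56 to 51 bases before the start. This short motif was held by 14% of all promoters and by 3 of the 7 promoters of the 10 genes, since RefSeq gives 2 starts for Slc10a1. The second start of Slc10a1 had AGGTCA from 87 to 82 bases before it, and Nr1h4 had it from 214 to 209 bases before a start inside the GENCODE gene. The letters CAAGGTCA, a site of the type bound by LRH-1, stood in none of the 7 and in 1.33% of all promoters. An exact inverted repeat of AGGTCA with 1 base between, the classical FXR site, stood in none of the 7 and in 0.00609% of all promoters. Only exact letters were searched, so sites that differ by 1 or more letters were not counted. In Abcb11 the letters aggccat stand directly before TGACCT, which makes such an inverted repeat with 1 letter changed. A match is a description of the letters only.

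Of 43 further genes of bile acid metabolism, 39 were tested, of which 20 were lower and 5 were higher after CD95-Ab with TMM-adjusted totals and 7 were lower and 9 higher on the hepatocyte scale. Among all tested genes 22% were lower and 25.4% higher with TMM, and 3.06% and 60.2% on the hepatocyte scale. The 39 genes had a median log2 fold change of -0.59 with TMM, with 32 values below 0. These genes, like all lists below, were chosen with earlier results of these data known, so counts over them are a description only. Among 14 other enzymes of synthesis, 9 were lower, 1 was higher and 4 were not called, with a median of -0.59, whereas 1 was lower and 2 were higher on the hepatocyte scale. Akr1d1, the reductase of the steroid ring, fell from 95.5 ± 13.2 to 36.9 ± 12.3 CPM (SD, n = 5 each), with a log2 fold change of -1.37 (SE 0.22, FDR 0.000371). Slc27a2, an acyl-CoA synthetase that acts on bile acid precursors, fell by 1.11 on the log2 scale (FDR 0.00028), and Amacr, the racemase of the side chain, fell by 0.97 (FDR 0.000497). Cyp46a1, a cholesterol hydroxylase best known from the brain, fell by 1.55 (FDR 0.00395) from a mean of only 0.901 CPM. These 3 calls were lost on the hepatocyte scale, at -0.39 for Slc27a2 (FDR 0.119), -0.25 for Amacr (FDR 0.302) and -0.81 for Cyp46a1 (FDR 0.0738).

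The enzyme that rose was Ch25h, which makes an oxysterol from cholesterol and is known to be induced in macrophages by inflammatory signals. It had between 0 and 7 counts in each saline-injected mouse and at most 0.197 CPM, compared with 22.2 to 54.2 CPM after CD95-Ab. No treated mouse was near a control, and the fitted log2 fold change was 8.39 (SE 0.46, FDR 3.24e-07). Products of Ch25h are substrates of Cyp7b1, which rose as well.

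Among 13 other transporters, 11 were tested, and 6 were lower, 2 were higher and 3 were not called, with a median of -0.59, whereas 3 were lower and 3 higher on the hepatocyte scale. The shares of all tested genes were 22% lower and 25.4% higher with TMM, and 3.06% and 60.2% on the hepatocyte scale. Abcg8 and Abcg5, the subunits of the pump that exports cholesterol into bile, fell by 2.07 (SE 0.17, FDR 2.67e-06) and 1.58 (SE 0.17, FDR 2e-05) on the log2 scale. Slco1a4, an organic anion carrier of the blood side, fell by 2.30 (SE 0.32, FDR 0.000146). Slco1a1, its close relative, fell by 0.69 (FDR 0.0148), though the value was 0.03 on the hepatocyte scale, and reads of these 2 paralogs may have been shared between them in counting.

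The transporters that rose were Slc10a2, the carrier ASBT, which in the liver is known from cholangiocytes, and Abcc4, a pump of the blood side known to rise in cholestasis. Slc10a2 rose from 5.59 ± 2.26 to 21.6 ± 5.97 CPM (SD, n = 5 each), with a log2 fold change of 1.95 (SE 0.29, FDR 0.000211), and the groups were apart. Abcc4 rose from 1.42 ± 0.422 to 2.59 ± 0.648 CPM, with a log2 fold change of 0.86 (SE 0.25, FDR 0.0132). Its groups overlapped, and it had 33 to 88 counts in saline-injected mice. Of 7 tested cholangiocyte markers 6 were higher, and their sum, with Krt7 and Cftr added, rose from 18.6 to 34.4 CPM over the controls to 50.0 to 189.1 CPM over the treated mice. Most of that sum was Spp1 (control mean 24.0 CPM, treated mean 65.9 CPM) and Sox9 (1.91 and 58.4 CPM). Krt7, Krt19, Epcam, Cldn7 and Muc1 had treated means of only 0.535 to 2.63 CPM. Krt7 was not called. The groups were apart for Sox9, Epcam and Muc1, and they overlapped for Spp1, Krt7, Krt19 and Cldn7. The part of these markers in the rise of Slc10a2 was not tested. Of the heteromeric exporter OST, Slc51a had 0 counts in every mouse, which allows a level of up to 0.0556 to 0.121 CPM, depending on the mouse (3 counts, counting error only). Its partner Slc51b had too few counts to be tested, at 0.0563 to 0.204 CPM in saline-injected mice and 0.192 to 1.75 CPM after CD95-Ab.

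Among 16 other regulators, 14 were tested, and 5 were lower, 2 were higher and 7 were not called, with a median of -0.48, whereas 3 were lower and 4 higher on the hepatocyte scale. Of all tested genes, 22% were lower and 25.4% higher with TMM, and 3.06% and 60.2% on the hepatocyte scale. Nr1i3 (CAR), a nuclear receptor that responds to bile acids and drugs, fell from 190.8 ± 34.0 to 24.0 ± 12.9 CPM (SD, n = 5 each), with a log2 fold change of -2.99 (SE 0.32, FDR 2.06e-05). Klb, the co-receptor through which intestinal FGF15 lowers Cyp7a1, fell by 1.64 (FDR 0.00226), a call lost on the hepatocyte scale (-0.84, FDR 0.0705). The lipid regulator Ppara fell by 1.60 (FDR 0.00261), and the coactivator Ppargc1a fell by 1.52 (FDR 0.00459). Values for the receptor Fgfr4 (-0.34), for Hnf4a (-0.34) and for Nr5a2 (0.44), which encodes LRH-1, did not pass the threshold, although on the hepatocyte scale Fgfr4 (0.39) and Hnf4a (0.37) turned direction and Nr5a2 was called higher (1.16, FDR 0.0013).

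The regulators that rose were S1pr2, a receptor for conjugated bile acids, with a log2 fold change of 1.29 (SE 0.31, FDR 0.00526), and Mafg, an FXR target that represses synthesis genes, with 0.59 (SE 0.12, FDR 0.00168). The groups were apart for both genes. Fgf15, which is made in the ileum, had 0 counts in every mouse, and Gpbar1, the membrane receptor TGR5, had at most 2 counts in a mouse.

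**Figure D5:**
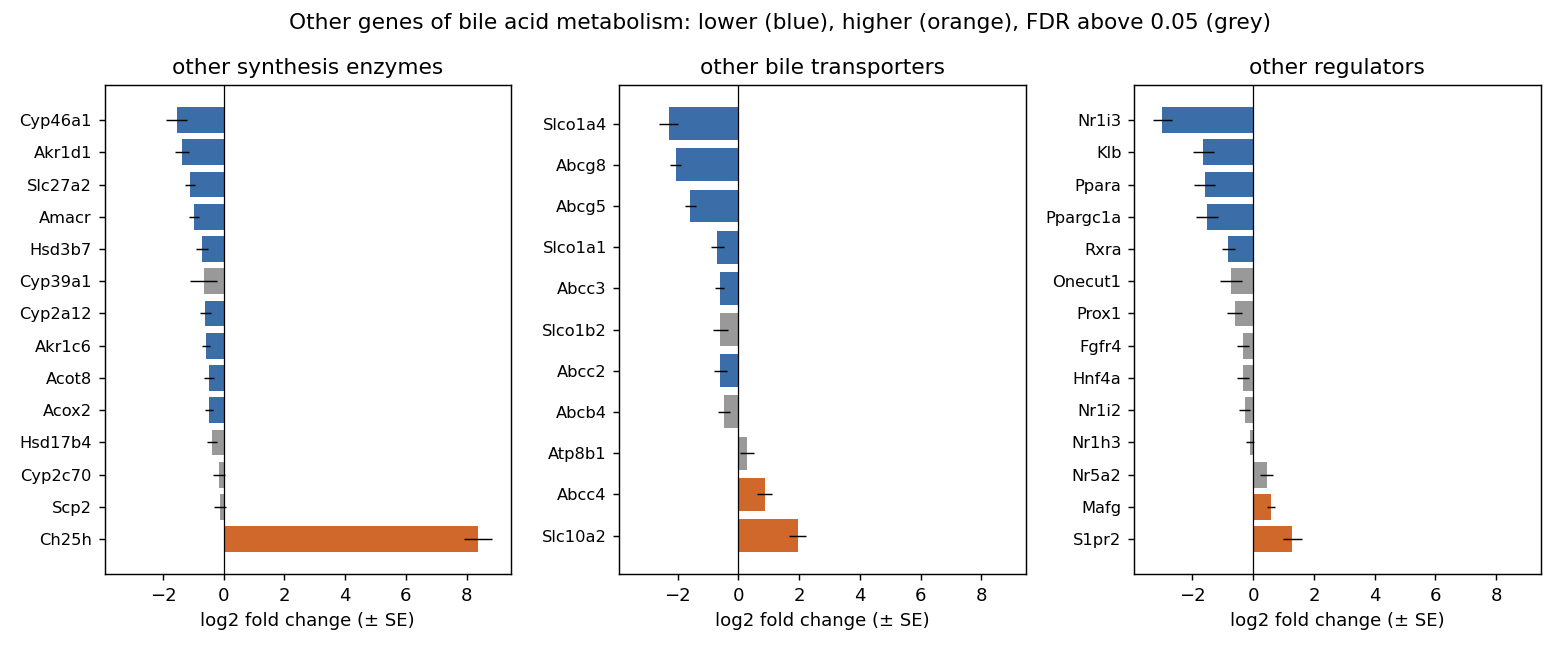
Log2 fold change with SE bars for the 39 tested genes among other synthesis enzymes, transporters and regulators (blue, lower; orange, higher; grey, FDR above 0.05), from TMM-adjusted totals. Ch25h at 8.39 and Nr1i3 at -2.99 mark the extremes; on the hepatocyte scale 19 of these bars would change direction.

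Genes whose products are known to lower Cyp7a1 were higher after CD95-Ab, with 6 of 6 called and 5 of them with the groups apart. Among all tested genes, 25.4% were called higher and 18.6% lay wholly above their controls. On the hepatocyte scale all 6 were again higher, compared with 60.2% of all tested genes. This list was chosen with earlier results of these data known, so its counts are a description only. The cytokine Il1b rose from 1.83 ± 0.617 to 25.2 ± 15.1 CPM (SD, n = 5 each), with a log2 fold change of 3.78 (FDR 2.36e-05). Tnf was at 0 to 0.141 CPM in saline-injected mice and at 2.34 to 7.75 CPM after CD95-Ab, with a log2 fold change of 5.58 (FDR 1.29e-05). Il6, at 0 to 0.204 and 0.481 to 2.14 CPM, had a log2 fold change of 3.80 (FDR 0.000447). The growth factors Tgfb1 and Hgf rose by 2.54 (FDR 1.09e-06) and 2.31 (FDR 0.000358). The transcription factor Jun rose by 1.62 (FDR 0.0162), with overlapping groups. Their part in the fall of Cyp7a1 was not tested.

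Cyp7a1 is also known as a rhythmic gene of the liver, driven in part by the clock output factor DBP. Of 17 clock genes, 6 were lower, 4 were higher and 7 were not called, compared with 22% lower and 25.4% higher among all tested genes. On the hepatocyte scale 4 were lower and 7 higher, compared with 3.06% and 60.2%. Dbp fell by 3.80 (SE 0.82, FDR 0.00251), from 43.0 to 130.1 CPM in saline-injected mice to 0.686 to 19.1 CPM after CD95-Ab. Per3, Tef and Hlf fell by 3.16, 2.35 and 2.14 on the log2 scale, and Npas2, Cry1, Bhlhe40 and Nfil3 rose by 2.81, 1.26, 1.22 and 1.12. For Npas2 the groups overlapped, at 0.141 to 0.423 CPM in saline-injected mice (6 to 11 counts) and 0.0321 to 3.54 CPM after CD95-Ab. Treated mouse 1 lay below every control for Npas2. The part of these genes in the change of Cyp7a1 was not tested.

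Markers of other liver cells and of blood moved with the groups as well, and values after their names are log2 fold changes. Among all tested genes, 22% were called lower and 25.4% higher. Summed over each list on TMM-adjusted totals, hepatocyte genes ranged from 141060 to 163855 CPM in saline-injected mice and from 75837 to 119126 CPM after CD95-Ab, with 7 of 16 lower and none higher. Alb weighed heavily in that sum, with a mean that fell from 84727 to 41434 CPM. Values were below 0 for 13 of the 16 genes and above 0 for Trf (0.02), Apob (0.17) and Ambp (0.19). Neutrophil markers rose from a range of 4.31 to 10.99 CPM to one of 113 to 447.3 CPM, with 7 of 7 tested genes higher and Mmp8 (6.57) and S100a9 (6.16) among them. Erythrocyte markers rose from 141.2 to 334.2 CPM to 1076 to 34206 CPM, with 8 of 8 higher and Hbb-bs at 6.83.

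Endothelial markers (7 of 8 higher, Lyve1 3.41) ranged from 61.5 to 143.2 CPM and from 210.7 to 407.5 CPM, and stellate cell markers (6 of 8 higher, Hgf 2.31 and Dcn 1.53) from 228 to 299.6 CPM and from 479.4 to 778.8 CPM, in saline and CD95-Ab groups respectively. T and NK cell markers (6 of 8 higher, Klrb1c 2.20 and Gzma 1.74) stayed below 14 CPM in sum, at 1.69 to 6.42 and 8.15 to 13.5 CPM. Kupffer cell markers overlapped between the groups, at 150.3 to 508.1 and 282.7 to 667.3 CPM, with 2 of 8 higher, Marco at 2.11 and Cd5l at 1.01, a share close to the 25.4% of all tested genes. Cholangiocyte markers included Sox9 at 4.95 and Spp1 at 1.46. RNAs without a poly(A) tail, a check on library preparation, rose from 72.0 to 163.1 CPM to 417.9 to 1439 CPM, with 5 of 7 tested higher and Rn7sk at 10.96. That rise of the sum was mostly Rn7sk. The other genes of the list summed to 71.8 to 162.3 CPM in saline-injected mice and 63.0 to 138.4 CPM after CD95-Ab. Most of this remainder was Hist1h2bc (means of 72.05 and 71.92 CPM) and Hist1h1c (42.6 and 24.53 CPM), neither of them called. Both are histone genes, and whether their transcripts lacked a tail in these libraries was not tested. Rpph1 (5.70), Snora81 (8.99), Scarna2 (3.38) and Hist1h4h (1.80) were also called higher, from low levels that hardly moved the sum. Rmrp and Snord118 had too few counts to be tested. Rmrp was at 0 to 0.0185 CPM in saline-injected mice and 0.289 to 1.71 CPM after CD95-Ab. Snord118 was at 0.0235 to 0.111 and 0.257 to 0.995 CPM. The part of cell composition and RNA quality in the changes of the bile acid genes was not tested.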

How the data were processed

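Livers of 10 mice were analysed, 5 saline-injected and 5 injected with CD95-Ab, grouped by the sample labels. Libraries were made from 500 ng of total RNA and read as pairs of 100 bases. The authors assigned reads to genes with RSEM 1.2.19 and deposited, for each mouse, expected counts and FPKM by gene. Expected counts, as deposited, are whole numbers without normalization, and RSEM shares out reads that fit several genes, so paralogs such as Slco1a1 and Slco1a4 are uncertain. FPKM, as the authors made it, is scaled for transcript length and library total, and was used only for levels, ratios and limma. The mouse annotation and genome build are not given in the sources used here. Symbols and positions came from GENCODE mouse release M21 (GRCm38), which matched 37606 of 38922 identifiers, and all 10 genes matched.

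Genes were kept by filterByExpr (minimum count 10), scaled with TMM factors and tested by quasi-likelihood (edgeR 4.0.16, R 4.3.3), with Benjamini-Hochberg adjustment over 13719 genes and thresholds of FDR 0.05 and a log2 fold change of 2 or -2. The standard error was derived from the F statistic. Within-mouse ratios, with 0.5 added to counts, were compared with two-sided exact permutation tests in scipy 1.17.1 (Python 3.11.15, pandas 2.3.3). Alternatives used DESeq2 1.42.0, limma 3.58.1, other factors and filters, an FDR of 0.01, the replicate block and each mouse left out. The code was tested on simulated data. Depth was 25965699 to 62097636 counts, where 3 counts are 0.0556 to 0.121 CPM on TMM-adjusted totals. P-values cover the spread between these mice.

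The 10 genes and all lists were chosen with earlier results of these data known. Named are all 10 genes, up to 4 called genes per direction and pathway list with the largest changes, genes with under 3 counts in every mouse, the genes known to lower Cyp7a1, and leading genes of the other lists. Fgfr4, Hnf4a, Nr5a2 and Slc51b were named in addition, after their values were seen. So were Trf, Apob and Ambp of the hepatocyte list, and the RNAs without a poly(A) tail other than Rn7sk. The same holds for Krt7, Krt19, Epcam, Cldn7 and Muc1 of the cholangiocyte list. Promoters were searched on both strands.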

Additional observations from a re-analysis of the deposited data

Results flagged for a closer look

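Values of 130 groups of 5 mice were examined for a mouse that stood far from the other 4 of its group, a pattern that chance gives in about 1 of 20 groups. None of the 10 bile acid genes or their ratios was among the 10 cases found. In the CD95-Ab group, mouse 1 was high for the clock genes Dbp (19.1 CPM, the others at most 2.47), Per3 (7.57 CPM, the others at most 1.05) and Tef (71.5 CPM, the others at most 20.3). Mouse 4 was high for Cyp46a1 (0.606 CPM) and Tnf (7.75 CPM) and low for Slc10a2 (11.3 CPM, the others at least 22.6). Mouse 5 was high for Abcg8 (28.2 CPM) and Cry1 (10.7 CPM), and mouse 3 was high for Krt7 (4.38 CPM). In the saline group, mouse 2 was low for Bhlhe40 (158.6 CPM, the others at least 222.6).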

How the results depend on the processing

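Cyp7a1, Cyp8b1 and Slc10a1 were lower with an FDR of 0.05 or less in every fit run, and Slc27a5 and Nr1h4 in every fit except on the hepatocyte scale. On that scale 3 of the 10 genes were lower, 1 of them past -2, and of the 39 other pathway genes 7 were lower, 9 higher and 1 lower past -2, while 3.06% of all tested genes were lower and 60.2% higher. Among genes that kept their direction, calls were lost for Nr1h4, Cyp46a1, Slc27a2, Amacr, Klb and Rxra and gained for Nr5a2 and Atp8b1. Among genes that turned, lower calls were also lost for Slc27a5, Hsd3b7, Akr1c6, Cyp2a12, Acox2, Acot8, Slco1a1, Abcc2 and Abcc3. Baat turned as well and was called higher (FDR 0.0143). The log2 fold change turned for Cyp27a1 (0.36), Slc27a5 (0.14), Baat (0.52), Abcb11 (0.28), Hsd3b7 (0.04), Akr1c6 (0.14), Cyp2c70 (0.54), Cyp2a12 (0.11), Acox2 (0.22), Hsd17b4 (0.34), Scp2 (0.61), Acot8 (0.24), Slco1a1 (0.03), Slco1b2 (0.14), Abcc2 (0.14), Abcc3 (0.09), Abcb4 (0.27), Hnf4a (0.37), Nr1h3 (0.62), Nr1i2 (0.44), Prox1 (0.16), Onecut1 (0.07) and Fgfr4 (0.39). The same scaling moved the median of all tested genes by 0.72. Over the 10 fits without 1 mouse, the number of the 10 genes that were lower ranged from 5 to 6 and the number higher from 0 to 2, and at an FDR of 0.01 the number higher was 0. Other pathway genes ranged from 17 to 22 lower, 5 higher throughout, and 2 to 4 past -2. The ratio of Baat to Slc27a5 ranged from 0.31 to 0.51 and passed the threshold without control 5, and with FPKM it was 0.35 (exact permutation test, adjusted p = 0.0238). With library totals alone, 1 Kupffer cell marker was higher and 1 RNA without a poly(A) tail was lower, and the cause was not tested.

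The labels do not describe mice with the same replicate number as matched. Deviations of these mice from the group means correlated at 0.257, 0.087, 0.13, -0.017 and -0.274 for numbers 1 to 5. The own number gave the highest value for 2 of 5 controls. Whether the mice were matched was not tested. With the replicate block, 2677 genes were lower and 3310 higher among all tested genes, and no call among the 10 genes changed. The ratios that had passed kept their size under the pairing (-5.36, 3.32, 1.06 and 1.89), with an adjusted p of 0.0781 by exact sign-flip permutation, in which 5 pairs cannot give a p below 0.0625. Depth limits Cyp7a1 after CD95-Ab, at 12 to 69 counts, and genes such as Slc51b.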

Other observations

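Members of the same marker list could have unlike values. Sox9, a transcription factor of cholangiocytes, rose from 1.02 to 3.23 CPM in saline-injected mice to 20.5 to 85.2 CPM after CD95-Ab, with a log2 fold change of 4.95 (SE 0.43, FDR 4.68e-06), whereas Krt7, another cholangiocyte marker, was at 0.267 to 1.04 and 0.686 to 4.38 CPM (FDR 0.108). Clec4f, a marker of resident Kupffer cells, had a log2 fold change of 0.10 (FDR 0.801), and Marco, a scavenger receptor of macrophages, had 2.11 (FDR 0.00407). Krt7 and Clec4f were chosen after their values were seen, and the differences between these genes were not tested.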
